A study of Mus musculus with 20 samples.

Results

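The genes described here encode the proteasome and the enzymes that attach ubiquitin to proteins or remove it. They were taken by name: every gene on either of a pair of array types whose only platform symbol starts with Psm, Ube2, Uba, Usp or Uch, apart from Psmb8, Psmb9, Psmb10, Ube2c and Usp18. This gave 73 of the 6137 genes with 1 symbol, and each was read from its probe set with the highest mean over the 10 time points. By role they were 6 genes of the 20S alpha ring, 6 of the beta ring, 6 ATPases and 12 other genes of the 19S particle (all named Psmd), 6 activators and assembly factors, 1 activating enzyme (E1), 13 conjugating enzymes (E2), 16 Usp proteases and 1 Uch hydrolase, with 6 that share only the prefix. Of the 73, 59 lay above the limit for testing in at least 2 samples and 14 did not. That limit was an intensity of 182 on array A and 156 on array B. The 59 passed on their own values, so a count over them is not a count over all 73. Psmd5 and Psmd9 encode chaperones that assemble the base of the 19S rather than subunits of it. Their names put them among the 12, and counts of the 20S and 19S subunits include both unless stated.

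Ubiquitin is passed from an activating enzyme to a conjugating enzyme and then, with a ligase, to a protein, and chains of it mark the protein for breakdown. The 20S core cuts the protein inside a barrel whose outer alpha rings form the gate and whose inner beta rings hold the cutting sites. The 19S cap on its end binds the chain, removes it and unfolds the protein with its ring of ATPases. Preadipocytes rebuild much of their protein content as they turn into fat cells, and the proteasome also removes regulators of that change.

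The series followed cultured 3T3-L1 mouse fibroblasts, which turn into fat-storing cells after induction with the MDI mixture, in standard use isobutylmethylxanthine, dexamethasone and insulin. Messenger RNA was measured at 10 time points on both array types, 1 sample each. They form 4 stages: preconfluent and confluent cells before induction (n = 2), an early stage of 6, 12 and 24 hours after it (n = 3), a middle stage of days 2 and 3 (n = 2), and late cells of days 4, 7 and 28 (n = 3). No time point had a replicate, so each p-value measures the spread between neighbouring time points, which holds real change with time as well as technical difference.

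Adipocyte markers followed the labels: 6 of 6 tested were higher in late cells than before induction, with summed intensities between 59450 and 89940 late and between 1046 and 1446 before. Of the fibroblast and preadipocyte markers, 3 of 7 were lower in late cells. The late samples differed: Col1a1 read 4990, 5520 and 19100 on days 4, 7 and 28. Thy1 read 1620, 674 and 4240, and Dlk1 1700, 685 and 3140. Pdgfrb and Col3a1 also had their highest late value on day 28. Vim did not, and Pdgfra lay below the floor in all 3 late samples. The part of this split in the day 28 levels of the members was not tested. Of the dividing-cell markers, 0 of 7 tested passed limma's test late against before, at a median log2 difference of -1.25, and 4 had an unadjusted p under 0.05. Of the interferon-response markers, limma called 0 of 5, and 0 had an unadjusted p under 0.05. Macrophage markers had 2 of 6 lower, skeletal muscle markers 1 of 4 higher and endothelial markers 1 of 3 higher, and each of these lists had 3 markers at or below the floor in all 10 samples. Between 3100 and 3354 probe sets of array A and between 2918 and 3040 of array B lay above the limit in a sample. RNA quality was read from Gapdh control probe sets at both ends of the transcript: on array A their 3-prime over 5-prime ratio was 0.986 to 1.33 before induction, 1.43 to 1.61 early, 1.27 to 1.60 in the middle stage and 0.992 to 1.14 late. In RNA from whole cultures, fewer cells of a type and less RNA per cell cannot be told apart.

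Most 20S and 19S subunits were measured throughout the series: 26 of the 30 lay above the limit in all 10 samples. The ratio of a subunit's highest to its lowest sample had a median of 2.17 over the 27 tested, against 2.58 over the 7582 probe sets tested. Their shared pattern was one of timing. The highest sample of 20 of the 27 (74.1%) was day 2, 3 or 4, against 34.4% of the 32 other members tested and 20.7% of all probe sets tested. Among the 4204 probe sets above the limit in every sample, as 26 of the subunits were, it was 21.8%. All 6 alpha-ring genes peaked there, 4 of 6 beta-ring genes, 3 of 4 ATPases and 7 of 11 other 19S genes. The lowest sample was confluent cells for 8 subunits, 6 hours for 8 and day 28 for 8. Without the chaperones Psmd5 and Psmd9, which peaked in preconfluent cells and at 12 hours, it was 20 of 25 (80.0%). This summary was chosen after the values were seen and has no test. Over the 27, the count was 20 under quantile normalization and 21 under median centring.

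**Figure D1:**
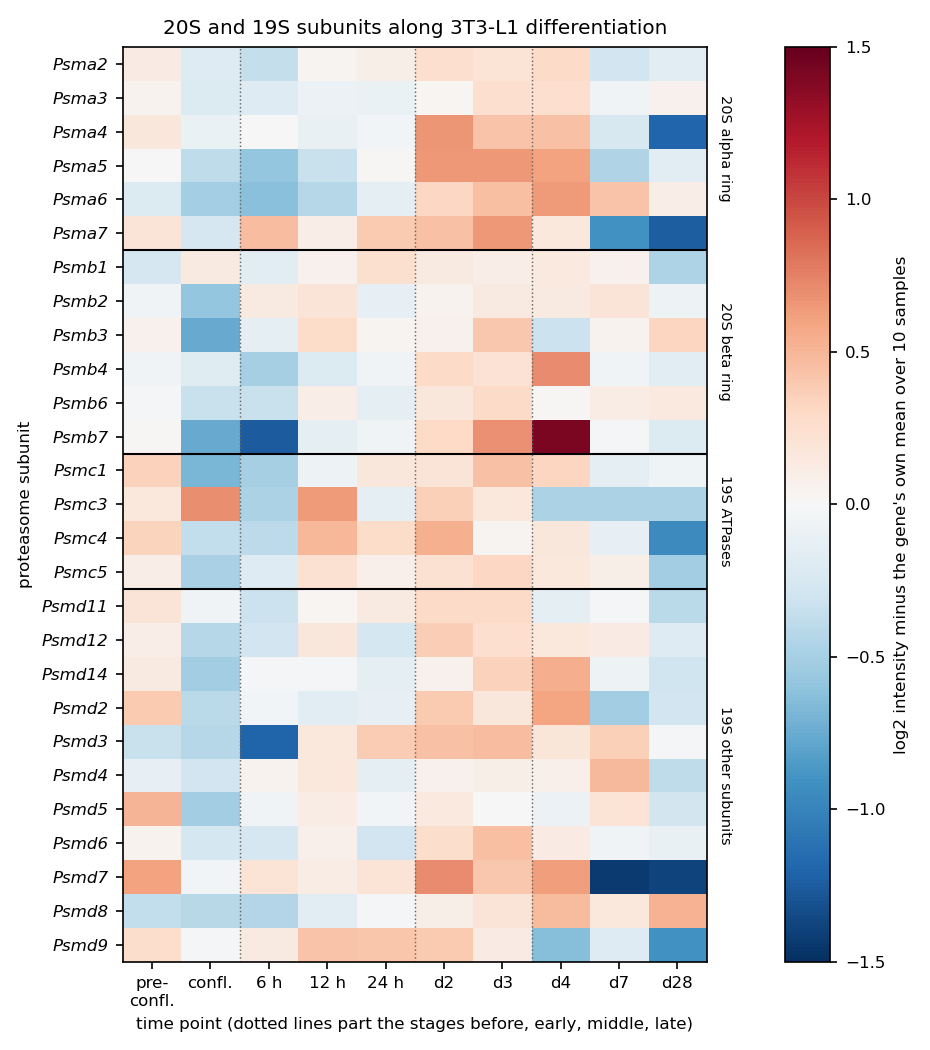
Level of each of the 27 tested 20S and 19S subunits (rows, grouped by role) at the 10 time points (columns), as log2 intensity with low values set to the floor, minus the gene's own mean over the 10 samples; colours saturate at 1.5 in either direction. Most rows are pale or blue in confluent cells and at 6 hours and red on days 2 to 4, and Psma4, Psma7 and Psmd7 are the darkest blue on day 28.

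**Figure D2:**
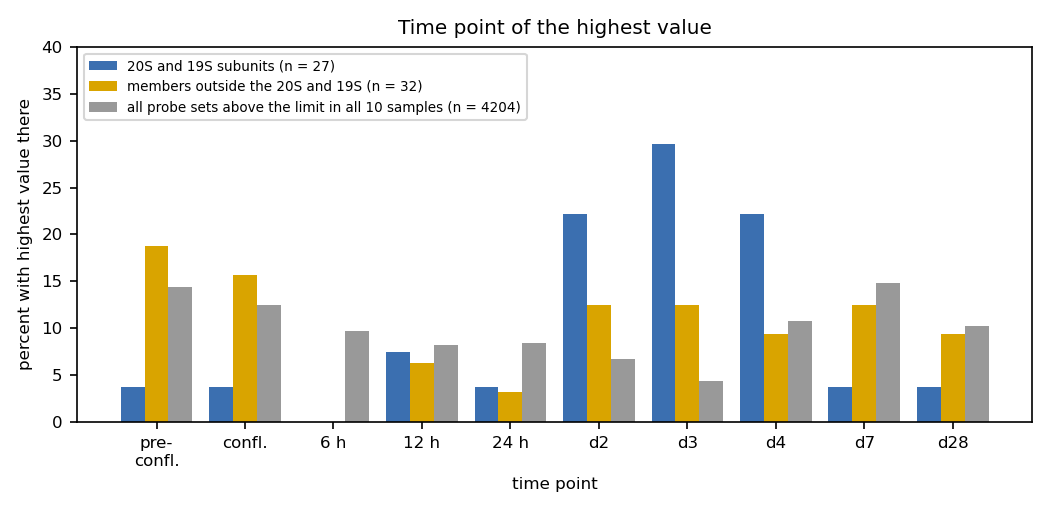
Percent of genes or probe sets (vertical axis) whose highest sample was each time point (horizontal axis), for the 27 subunits of the 20S and 19S, the 32 other members tested and the 4204 probe sets above the limit in all 10 samples. The 3 tallest bars of the subunits stand at days 2, 3 and 4, which hold 20 of them.

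The alpha ring held the pattern in all of its genes, and 3 of the 6 passed limma's test for a trend along the series. Over all members tested 7 of 59 passed it (11.9%), against 16.8% of all probe sets tested, a difference in share that was not tested. At an unadjusted p under 0.05, 18 of the 59 did, against 2448 of the 7582 probe sets tested. By role the 7 were 3 of 6 alpha-ring genes, 1 of 6 beta-ring genes, 2 of 11 other 19S genes and 1 of 11 Usp proteases.

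Psma6, an alpha-ring subunit, read 3440 in preconfluent and 2790 in confluent cells, 2580, 2950 and 3590 at 6, 12 and 24 hours, 4920 and 5410 on days 2 and 3, and 6170, 5360 and 4240 on days 4, 7 and 28. All 5 samples from day 2 on lay above all 5 earlier ones (trend adjusted p = 0.0270 from limma). Psma4 read 4020 and 3350 before induction, 3580, 3320 and 3490 in the early stage, 5660 and 4810 in the middle stage, and 4870, 3030 and 1570 on days 4, 7 and 28. It was high on days 2 to 4 and lowest on day 28, below every earlier sample (trend adjusted p = 0.0255). Its second probe set, shared by a gene family, read between 604 and 1070 with its highest value at 24 hours and did not pass (trend adjusted p = 0.352). Psma7 read 1850 and 1360 before induction, 2240, 1740 and 2120 early, 2190 and 2540 in the middle stage, and 1800, 863 and 689 on days 4, 7 and 28. Days 7 and 28 lay below all 8 other samples (trend adjusted p = 0.0218). None of the 3 passed the test of late against before, where the log2 difference was 0.75 for Psma6, -0.36 for Psma4 and -0.63 for Psma7 (adjusted p = 0.142, 0.638 and 0.362). Psma2, Psma3 and Psma5 did not pass the trend test, and their probe sets are shared by a gene family and may bind related transcripts. Psma5 read 3810, 3810 and 3690 on days 2, 3 and 4 and between 1630 and 2450 in the 7 other samples. Psma2 lay between 2500 and 3910 and Psma3 between 2490 and 3410 in all samples.

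In the beta ring, Psmb7 encodes the subunit with trypsin-like activity, and it alone passed. It read 1170 and 680 before induction, 484, 1050 and 1110 early, 1420 and 1850 in the middle stage, and 3060, 1140 and 995 on days 4, 7 and 28. The day 4 sample stood above the 9 others, and days 7 and 28 were back at the level of 24 hours (trend adjusted p = 0.0462). Psmb4 had the same highest sample, with 5600 on day 4 and between 2440 and 4190 in the others. The remaining 4 varied less: Psmb6, which holds the caspase-like site, lay between 2650 and 4070, Psmb2 between 1570 and 2680 and Psmb3 between 2210 and 4920. Psmb1 ranged from 4590 to 7470 and was read from a probe set shared by a gene family.

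Of the 19S genes other than ATPases, Psmd7 and Psmd8, both of the lid that takes ubiquitin off the substrate, passed the trend test in different shapes. Psmd7 read 1960 and 1250 before induction, 1490, 1390 and 1490 early, 2110 and 1700 in the middle stage, and 1990, 476 and 494 on days 4, 7 and 28. It lay between 1250 and 2110 through day 4 and was lower on days 7 and 28 than in any earlier sample (trend adjusted p = 0.0257). Its late group holds both levels, and late against before did not pass (log2 difference -1.01 ± 0.54 SE, adjusted p = 0.279), and it did without day 4 (-1.69, adjusted p = 0.0131). Psmd8 read 1150 and 1110 before induction, 1090, 1320 and 1460 early, 1570 and 1690 in the middle stage, and 2060, 1650 and 2130 on days 4, 7 and 28. From 6 hours to day 4 each sample was above the one before it (trend adjusted p = 0.0281). The second probe set of Psmd8, on array A, instead read 1420, 1320 and 1230 at 6, 12 and 24 hours. It did not pass (trend adjusted p = 0.277). Psmd3, a lid subunit, was lowest at 6 hours with 1440 and lay between 2470 and 4570 elsewhere. The ubiquitin receptor Psmd4 was highest on day 7 with 4540 and lay between 2490 and 3620 elsewhere. Psmd14, the lid's deubiquitinase, lay between 1220 and 2550, and the scaffold subunit Psmd2 between 999 and 2170. Psmd11, Psmd12 and Psmd6, further lid subunits, and Psmd5, which helps to assemble the base, had ratios of highest to lowest sample between 1.61 and 2.05. The second probe set of Psmd6 read between 793 and 888 in late cells, against 322 to 500 early. It was 2.07-fold higher late against early (adjusted p = 0.0228), a comparison that the chosen probe set did not pass. Psmd1 was above the limit in 1 sample and was not tested.

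Of the ATPases, which form the ring that unfolds substrates, 0 of 4 tested passed limma's trend test, and 0 had an unadjusted p under 0.05. Psmc5 lay between 2760 and 4900, highest on day 3 and lowest on day 28. Psmc4 had 967 on day 2 and 346 on day 28, its highest and lowest values. Psmc1 ranged from 516 in confluent cells to 1120 on day 3. Psmc3, read from a family probe set, lay at or below the floor of 137 at 6 hours and on days 4, 7 and 28 and reached 307 in confluent cells. Psmc2 and Psmc6 were at or below that floor in all 10 samples.

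Leaving out time points bore on each of these trend calls. Psma7 lost its call without day 7 or day 28 (adjusted p = 0.0532 and 0.154), and Psmd7 without day 2 or day 28 (0.0600 to 0.106). Psma4 lost it without day 2, 3, 4 or 28 (0.0546 to 0.308), with day 28 giving the highest. Psma6 lost it without confluent cells, 6 or 12 hours or day 2, 3 or 4 (0.0541 to 0.0740), and Psmd8 without confluent cells, 6 or 12 hours or day 2, 3, 4 or 28 (0.0560 to 0.0608). Psmb7 lost it without any of confluent cells, 6 hours, 24 hours and days 2, 3, 4, 7 and 28 (0.0547 to 0.112), with day 4 giving the highest. A stiffer curve, a spline on 2 degrees of freedom in place of 3, kept Psma7 and Psmd8 of these 6 and lost Psma4, Psma6, Psmb7 and Psmd7 (adjusted p = 0.227, 0.148, 0.371 and 0.0738). With the floor doubled, Psmb7 and Psmd7 lost their calls, as did Usp39, described further on. Psma4 also lost its call when read as the mean of its probe sets (0.120).

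**Figure D3:**
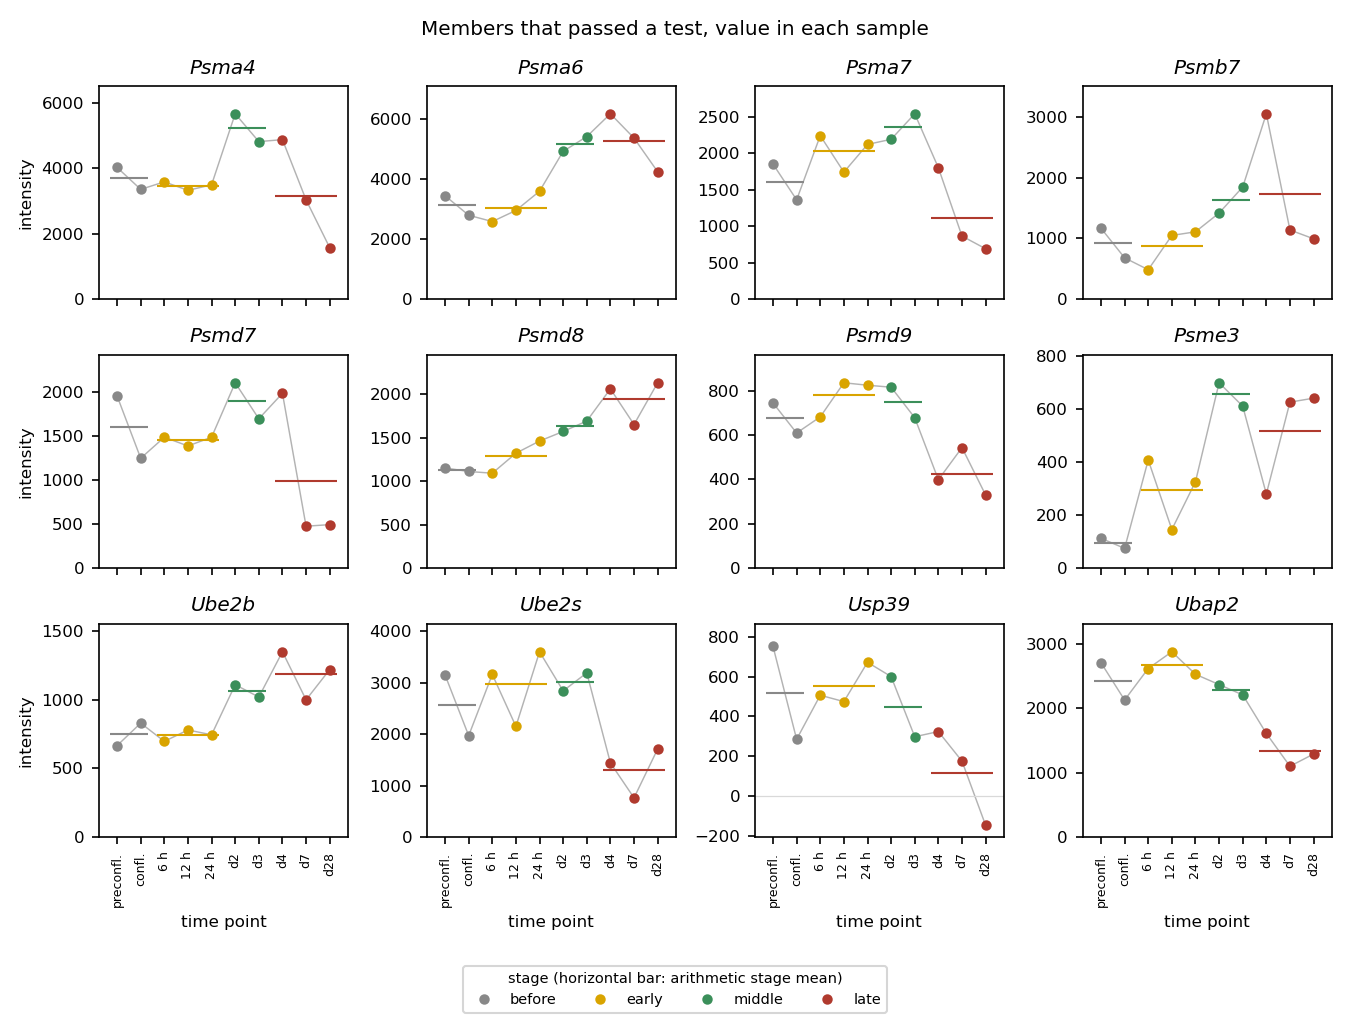
Intensity (vertical axis, from 0 or below) of the 12 members that passed a stage comparison or the trend test, in each of the 10 samples (horizontal axis); points are single samples coloured by stage, and bars are arithmetic stage means. Psma6, Psmd8 and Ube2b are higher from day 2 on, Psmd7 drops after day 4, and the late points of Psmd9, Ube2s and Ubap2 lie below the early ones.

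Promoters are shown for the 4 proteasome genes with a listed promoter among those that passed a test with the largest changes: Psma7 and Psma6 of the alpha ring, and Psmd9 and Psmd8 of the 19S, each a pair with late-minus-before log2 differences of opposite sign. Each sequence is 300 bases from RefSeq (GRCm38.p6), 250 before the listed start of the gene and 50 after it, read 5′ to 3′ on the gene's strand. Capitals mark matches on either strand to 4 motifs: the antioxidant response element core (TGACNNNGC), the CCAAT box (CCAAT), the GC box core (GGGCGG) and the Ets site core (CGGAAG). Psma7 lies at chr2:180042415-180042714 on the minus strand, Psmd9 at chr5:123227940-123228239 on the plus strand, Psma6 at chr12:55383972-55384271 on the plus strand, the first of 2 listed for it, and Psmd8 at chr7:29180624-29180923 on the minus strand.
Psma7: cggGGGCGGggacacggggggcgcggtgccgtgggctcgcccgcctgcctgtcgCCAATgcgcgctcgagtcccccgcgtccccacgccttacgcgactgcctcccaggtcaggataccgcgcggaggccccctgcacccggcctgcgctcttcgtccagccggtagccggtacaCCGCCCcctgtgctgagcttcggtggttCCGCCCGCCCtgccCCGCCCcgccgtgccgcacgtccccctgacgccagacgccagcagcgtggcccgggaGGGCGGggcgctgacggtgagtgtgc
Psmd9: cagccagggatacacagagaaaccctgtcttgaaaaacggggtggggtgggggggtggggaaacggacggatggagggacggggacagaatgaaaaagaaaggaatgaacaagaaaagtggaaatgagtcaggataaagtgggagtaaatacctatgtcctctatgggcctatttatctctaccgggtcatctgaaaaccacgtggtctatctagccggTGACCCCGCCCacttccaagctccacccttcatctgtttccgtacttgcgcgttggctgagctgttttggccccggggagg
Psma6: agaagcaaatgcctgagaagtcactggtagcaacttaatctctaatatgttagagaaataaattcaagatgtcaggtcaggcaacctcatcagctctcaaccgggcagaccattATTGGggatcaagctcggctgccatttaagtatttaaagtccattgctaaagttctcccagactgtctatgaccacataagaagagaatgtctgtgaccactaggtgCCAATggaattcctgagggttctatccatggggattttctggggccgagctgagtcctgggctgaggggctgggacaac
Psmd8: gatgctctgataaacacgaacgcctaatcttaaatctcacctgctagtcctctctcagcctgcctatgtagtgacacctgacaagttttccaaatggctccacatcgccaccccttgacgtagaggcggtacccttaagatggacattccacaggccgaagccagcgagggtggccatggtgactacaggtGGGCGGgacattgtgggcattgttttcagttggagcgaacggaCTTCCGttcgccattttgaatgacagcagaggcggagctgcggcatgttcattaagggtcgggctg
Psma7 held 6 GC box cores, of which a neighbouring pair overlap, and 1 CCAAT box. Psmd9 held 1 antioxidant response element core, which overlaps a GC box core on the other strand. Psma6 held 2 CCAAT boxes, 1 on each strand, and Psmd8 held 1 GC box core and 1 Ets site core. Of the 30 subunits of the 20S and 19S, 24 had a listed promoter. Of those 24, 15 held the Ets site core, against 16.9% of 32851 promoters of the same length, and 16 held the GC box core, against 35.7%. The CCAAT box was in 9 of 24, against 37.4%, and the antioxidant response element core in 4 of 24, against 12.4%. The subunits were counted on 1 promoter per gene. The percents cover every listed promoter, with more than 1 for some genes and without regard to expression here. These differences were not tested. A match is a run of letters and not a shown binding site.

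Late cells were set against cells before induction to ask what separates adipocytes from their precursors. Psmd8 and the activator gene Psme3 were higher in late cells, and 0 members were lower. These are 2 of the 59 tested, against 5.82% of all probe sets called higher and 5.10% called lower by limma. Without adjustment 15 of the 59 had a p under 0.05, against 1901 of the 7582 probe sets tested. The median log2 difference was 0.09 over the 59 members and -0.05 over all probe sets tested. It was 0.16 over the 27 subunits of the 20S and 19S, where 16 were positive and 11 negative, and the median was -0.07 without the confluent sample, 0.35 without the preconfluent one and 0.01 without day 4. Over the 32 other members it was -0.20.

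Psmd8 read 2060, 1650 and 2130 in late cells, against 1150 and 1110 before induction, with no overlap. It was 1.71-fold higher (log2 difference 0.78 ± 0.19 SE, n = 3 against 2, adjusted p = 0.0331). On array B, where it was read, both 3-prime over 5-prime controls separated these groups: the ratio was 0.955 to 1.05 late and 0.824 to 0.872 before for beta-actin, and 0.737 to 0.773 late and 0.788 to 0.815 before for Gapdh. Their part in the level of Psmd8 was not tested. Its second probe set, on the other array type, read 1630, 1720 and 2060 in late cells and 1190 and 1240 before, and did not pass (0.56, adjusted p = 0.235). Psme3 encodes PA28-gamma, a ring that caps the 20S core in the nucleus and opens it without ubiquitin. It read 279, 625 and 640 in late cells, against 112 and 74 before induction, both under the floor of 137. Late cells were at least 3.51-fold higher (log2 difference 1.81 ± 0.48 SE, adjusted p = 0.0345). In between it read 407, 145 and 325 early and 698 and 610 in the middle stage, so that the day 4 sample lay among the early ones. Its second probe set lay above the limit in 3 samples and did not pass (0.22, adjusted p = 0.614).

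Psmd8 kept this call without 6 hours, 24 hours or day 7 but lost it without preconfluent or confluent cells, 12 hours or day 2, 3, 4 or 28 (adjusted p = 0.0527 to 0.111). Psme3 lost it without preconfluent or confluent cells or day 2, 3, 7 or 28 (0.0525 to 0.154), and with the floor doubled (0.283). On array A, where Psme3 was read, both controls overlapped between late cells and cells before induction.

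**Figure D4:**
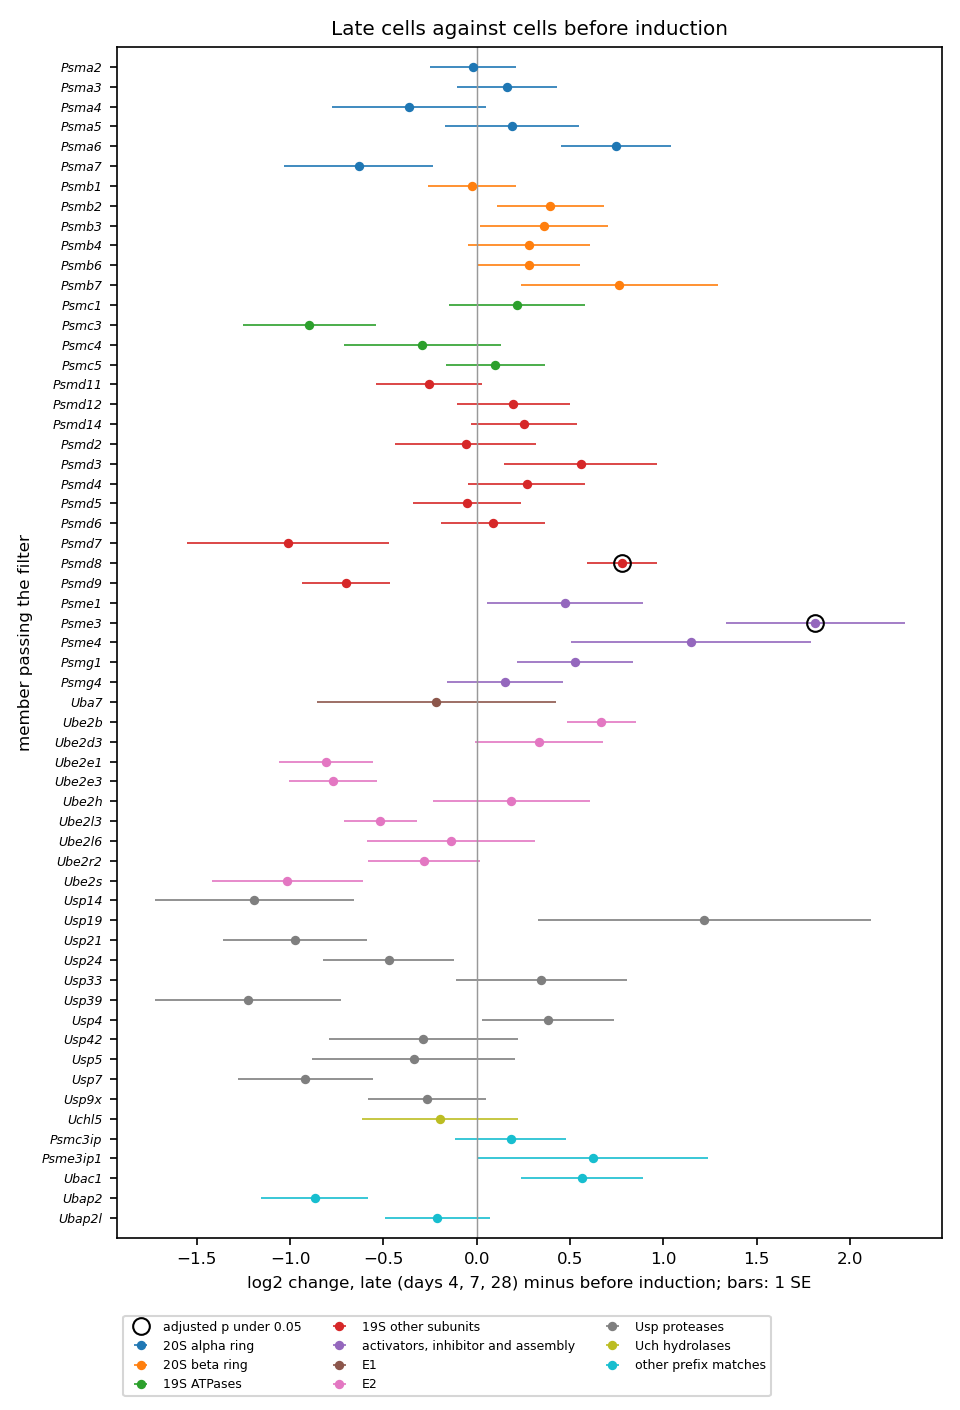
Log2 difference (horizontal axis, late cells minus cells before induction, with 1 SE from limma) of each of the 59 members tested (rows, coloured by role). Psmd8 and Psme3, ringed, passed at an adjusted p under 0.05; 30 members lie right of 0 and 29 left of it.

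As a group the activators and assembly factors had positive log2 differences late against before in 5 of 5 tested, with a median of 0.52, of which Psme3 passed. Over all probe sets tested, 3537 of 7582 were positive. Psme4 encodes PA200, a large nuclear activator. It read 904, 514 and 662 in late cells, against 678 and 89 before, so the confluent sample was far below the preconfluent one and the groups overlapped (adjusted p = 0.305). Psme1, the alpha subunit of the interferon-inducible PA28 cap, read 697 and 1110 before induction, 902, 358 and 486 early, 569 and 987 in the middle stage, and 1260, 1190 and 1210 in late cells. Its late samples lay above all others, and late against early did not pass (log2 difference 1.18 ± 0.37 SE, adjusted p = 0.0610). A probe set with the symbols Psme2b and Psme2, outside this set, read 2850, 2190 and 3390 in late cells. Early it read 962, 651 and 843, and late cells were 3.42-fold higher (adjusted p = 0.0116). It passed the trend test (adjusted p = 0.0341), and late against before did not pass (adjusted p = 0.0532). The assembly chaperones Psmg1 and Psmg4 lay between 809 and 1850 and between 655 and 1050, and Psmg3 was not tested. Of the interferon-induced cutting subunits outside this set, Psmb8 and Psmb10 were above the limit in 1 sample each, day 28 in both, and Psmb9 on array B read between 117 and 333. The interferon-induced protease gene Usp18, also outside it, was above the limit on day 28 alone, with 253. Summed interferon-response markers lay between 1555 and 2965 late and between 1440 and 2464 before. Their part in the levels of Psme1 was not tested.

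Late cells were also set against the early stage, which covers the hormone phase. Psmd8 and Ube2b were higher in late cells and Psmd9, Ube2s and Ubap2 lower. These are 2 of 59 members higher, against 7.16% of all probe sets, and 3 of 59 lower, against 6.54%. At an unadjusted p under 0.05, 12 of the 59 differed, against 2117 of the 7582 probe sets tested. The median was 0.02 over the members and -0.05 over all probe sets tested.

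Ube2b is RAD6B, an E2 that ubiquitinates histone H2B and works in DNA damage tolerance. It read 1350, 1000 and 1220 in late cells, against 697, 780 and 745 early, with no overlap. Late cells were 1.60-fold higher (log2 difference 0.67 ± 0.16 SE, adjusted p = 0.0301). Against the 666 and 830 before induction the difference was of the same size and did not pass (0.67, adjusted p = 0.0532). Psmd8 was 1.51-fold higher in late than in early cells, with no overlap (0.60 ± 0.17 SE, adjusted p = 0.0491). Its second probe set did not pass (0.44, adjusted p = 0.273).

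Psmd9, the chaperone, read 399, 544 and 330 in late cells, against 683, 837 and 826 early, and was 1.88-fold lower (log2 difference -0.91 ± 0.21 SE, adjusted p = 0.0249). Both samples before induction, 746 and 610, also lay above the late ones. Ubap2 carries a ubiquitin-associated domain and is in the set by its prefix. It read 1610, 1100 and 1290 in late cells, against 2620, 2880 and 2530 early, and was 2.03-fold lower with no overlap (-1.02 ± 0.26 SE, adjusted p = 0.0238). It had been 2710 and 2130 before induction and 2370 and 2210 in the middle stage, so its late samples lay below the 7 others.

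Ube2s extends ubiquitin chains on targets of the anaphase-promoting complex in mitosis. It read 1440, 761 and 1710 in late cells, against 3160, 2150 and 3600 early, and was 2.35-fold lower (log2 difference -1.24 ± 0.36 SE, adjusted p = 0.0443). All 3 late samples lay below the 7 others, which ranged from 1970 to 3600. Ube2c, the E2 that starts those chains and is outside this set, read 1760 and 468 before induction, 433, 458 and 2000 early, 696 and 873 in the middle stage, and 387, 296 and 374 in late cells. It was highest in preconfluent cells and at 24 hours, and late against before did not pass (-1.38, adjusted p = 0.233). The summed dividing-cell markers lay between 4873 and 15185 before induction, 4078 and 18069 early, 6375 and 7662 in the middle stage, and 2230 and 3194 in late cells, and their part in the level of Ube2s was not tested. The Gapdh 3-prime to 5-prime ratio on array A, where Ube2s and Ubap2 were read, did not overlap between late (0.992 to 1.14) and early samples (1.43 to 1.61), and its part was not tested either. On array B, where Psmd8, Psmd9 and Ube2b were read, it lay between 0.737 and 0.773 late and between 0.722 and 0.773 early.

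Of these calls, Psmd9 was lost without 12 or 24 hours or day 4 or 28 (adjusted p = 0.0621 to 0.0896), and Ubap2 without 6 or 12 hours or day 7 or 28 (0.0551 to 0.0860). Ube2b was lost without 6, 12 or 24 hours or day 4 or 28 (0.0704 to 0.0839). Psmd8 stayed under the threshold only without day 7 (0.0552 to 0.131 in the 9 others), and Ube2s only without day 28 (0.0517 to 0.140 in the 9 others). With day 2 counted as early and day 3 as late, all 5 were lost (0.0697 to 0.181), and Psme1 higher and Usp39 lower were called in their place. Under median centring Psmd8 and Ube2s lost their calls (0.0633 and 0.0677).

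The remaining E2 genes went both ways. Over the 9 tested, the median log2 difference late against before was -0.28, with 3 positive and 6 negative, 0 called by limma and 5 with an unadjusted p under 0.05. Ube2e3 read 651, 771 and 720 in late cells, against 1330 and 1110 before (log2 difference -0.77 ± 0.24 SE, adjusted p = 0.0729). Its second probe set, on array A, read 240, 257 and 271 in late cells, against 648 and 647 before, and was 2.53-fold lower (adjusted p = 0.0240). Ube2e1, its close relative, read 855, 593 and 770 in late cells, against 1560 and 1050 before, and did not pass (adjusted p = 0.0804). Ube2h had 2770 in confluent cells alone and between 716 and 2070 elsewhere. Ube2r2, a partner of the SCF ligases, also had its highest value there, 5370 against 2470 to 3750 elsewhere. Ube2l3 lay between 1510 and 3270. Ube2d3 and Ube2l6, the second from a family probe set, were at or below the floor in 5 samples each, and Ube2d2a, Ube2o, Ube2t and Ube2v2 were not tested. Uba7, the E1 of the ubiquitin-like protein Isg15, read 651 in confluent cells and between 18 and 351 elsewhere.

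The Usp proteases, which remove ubiquitin, were mostly dim: 11 of 16 were tested and 4 lay above the limit in all samples. Late against before, 8 of the 11 had negative and 3 positive differences, with a median of -0.34, and limma called 0 of them, with 4 at an unadjusted p under 0.05. Usp39, which has no protease activity and works in splicing, passed the trend test (adjusted p = 0.0417). It read 753 and 285 before induction, 507, 475 and 673 early, 601 and 298 in the middle stage, and 324, 175 and -148 on days 4, 7 and 28. The day 28 value is below the floor, and the call was lost without 6, 12 or 24 hours or day 2, 4, 7 or 28 (adjusted p = 0.0653 to 0.152). Usp7, which acts on Mdm2 and p53, read 451, 914 and 826 in late cells, against 1690 and 1030 before (log2 difference -0.92 ± 0.36 SE, adjusted p = 0.137). Usp14 trims chains at the proteasome and read 318, 291 and 52 in late cells, against 895 and 317 before (trend adjusted p = 0.0528). Usp19 read 1730 on day 28, 320 on day 3 and at or below the floor in the 8 other samples, so 1 sample carried its range. Uchl5, the Uch hydrolase that sits on the 19S, read 1110 and 751 before induction, 778, 1130 and 1330 early, 1760 and 1200 in the middle stage, and 1330, 628 and 604 in late cells. It was highest on day 2 and did not pass (trend adjusted p = 0.0988). Usp4 lay between 209 and 421, Usp9x between 602 and 1230 and Usp33, from a family probe set, between 235 and 825, and Usp24 and Usp42 between 63 and 393. Usp10, Usp15, Usp17la, Usp25 and Usp29 were not tested.

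Among the genes that share only a prefix, Psmc3ip lay between 525 and 970, Ubac1 between 279 and 733 and Ubap2l between 611 and 909, and none of the 3 passed a test. Psme3ip1 ranged from -84 on day 28 to 609 on day 7, and Uba1y was at or below the floor of 156 on array B in all 10 samples.

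The early stage against cells before induction called 0 of 59 members with limma, against 0.198% of all probe sets higher and 0.158% lower. Without adjustment 2 members differed, both Usp proteases, against 699 of the 7582 probe sets tested. Usp21 read 120, 140 and -40 early, against 274 and 530 before (log2 difference -1.47 ± 0.39 SE, adjusted p = 0.189). Usp5, which takes apart free ubiquitin chains, read -434, 62 and 91 early, against 610 and 167 before (-1.22 ± 0.54 SE, adjusted p = 0.532). In both, most early samples were at or below the floor.

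Because so many subunits peaked on days 2 to 4, the middle stage was also compared with its neighbours, a choice made after the values were seen. The peak times and these differences come from the same values. The counts by direction therefore restate the peak times in part and are no separate support for them. Middle against before, 26 of the 27 subunits of the 20S and 19S had positive log2 differences, with a median of 0.41, against -0.04 over all probe sets tested. Among the 4204 probe sets above the limit in every sample, 1996 were positive. None of the 27 passed limma's test, and 2 had an unadjusted p under 0.05. Of all 59 members Psme3 was higher, with 0 lower, against 1.53% of all probe sets higher and 1.23% lower. Unadjusted, 8 of the 59 had a p under 0.05, against 1197 of the 7582 probe sets tested. Psme3 was at least 4.76-fold higher (2.25 ± 0.52 SE, n = 2 against 2, adjusted p = 0.0479). It lost this call without preconfluent or confluent cells, 24 hours or day 2, 3, 7 or 28 (0.0578 to 0.203). Late against middle, 25 of the 27 had negative differences, with a median of -0.28. Among the 4204 probe sets above the limit in every sample, 2204 were negative, with a median of -0.02. For the 27, single samples moved these values. Without day 28 the median was -0.18 and 20 were negative, and without day 4 it was -0.41 and 26 were negative. Limma called 0 of the 27, and 3 had an unadjusted p under 0.05. Over all members limma called 0 of 59, against 0.224% of all probe sets higher and 0.0659% lower. Unadjusted, 7 of the 59 had a p under 0.05, against 920 of the 7582 probe sets tested. These comparisons share samples with those of late and early cells. Gapdh 3-prime over 5-prime ratios on array A did not overlap between middle (1.27 to 1.60) and late samples (0.992 to 1.14). Those of beta-actin overlapped. On array B the beta-actin ratios separated middle (1.06 to 1.08) from late samples (0.955 to 1.05), and those of Gapdh overlapped. Middle against before, both controls overlapped on array A. On array B both separated these groups. Beta-actin read 1.06 to 1.08 in the middle stage against 0.824 to 0.872 before, and Gapdh 0.762 to 0.765 against 0.788 to 0.815. Their part in these differences was not tested.

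Each sample before induction moved this comparison. Without confluent cells, the median middle against before was 0.17 and 21 of the 27 were positive. Without the preconfluent sample it was 0.64 and 25 were positive. Without the chaperones Psmd5 and Psmd9, 24 of 25 were positive middle against before and 23 of 25 negative late against middle. In confluent cells 25 of the 27 subunits read lower than in preconfluent cells (92.6%), against 43.7% of all probe sets tested, with a median ratio of 0.797. A drop of more than 1.5-fold was seen in 8 of the 27, or 29.6%, against 15.7% of all probe sets. These are 1 sample each and carry no test. The RNA-quality ratios of these samples also differed. On array A, where most subunits were read, they were 0.986 and 1.33 for Gapdh and 1.05 and 1.48 for beta-actin. The lower value of each control was its lowest on that array in the series. On array B they were 0.788 and 0.815 for Gapdh and 0.824 and 0.872 for beta-actin. The part of RNA quality in this step was not tested. Psmd5 read 1030 in confluent and 2110 in preconfluent cells, a ratio of 0.488, and Psmc1 read 516 in confluent and 1050 in preconfluent cells, a ratio of 0.491. The 2 exceptions were Psmb1, with 6940 in confluent and 5320 in preconfluent cells, and Psmc3, with 307 in confluent and 212 in preconfluent cells. Both were read from family probe sets. The second probe set of Psmb1, not a family one, also rose, from 483 in preconfluent to 681 in confluent cells. Other second probe sets tested went both ways. Those of Psma3, Psma4, Psmb3, Psmd3 and Psmd6 fell, and those of Psma2 (2080 to 2900) and Psmd8 (1190 to 1240) rose. For the chosen probe sets, quantile normalization gave 24 of 27 lower and median centring 25. On day 7, 18 of the 27 read lower than on day 4 (66.7%), against 42.3% of all probe sets tested, with a median ratio of 0.869. The drop was more than 1.5-fold in 8 of the 27, or 29.6%, against 14.3% of all probe sets. This step moved with the scaling: median centring gave 22 of 27 lower, against 57.8% of all probe sets, a median ratio of 0.795 and 10 past 1.5-fold. Psmd7 and Psmb7 had the lowest ratios of day 7 to day 4, 0.239 and 0.373. Psmd9, Psmd4, Psmb3 and Psmd5 read higher on day 7, with ratios between 1.22 and 1.36.

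Around the set, a list of 127 further genes of the pathway had 63 on the arrays, of which 53 were tested. Late against before, 2 were higher (3.77%, against 5.82% of all probe sets) and 1 lower (1.89%, against 5.10%). Late against early, 5 were higher (9.43%, against 7.16%) and 1 lower (1.89%, against 6.54%). The trend test called 5 of the 53 (9.43%, against 16.8%). These shares rest on counts of 5 or fewer, and their differences from the shares of all probe sets were not tested. Nfe2l1, the transcription factor that drives proteasome genes when the proteasome falls short, read 2720, 2850 and 3290 in late cells, against 1630 and 2090 before (1.59-fold higher, adjusted p = 0.0431). Against the 1330, 1320 and 1480 of the early stage it was 2.14-fold higher with no overlap (log2 difference 1.10 ± 0.16 SE, adjusted p = 0.00335). Rnf11, a RING-domain protein, read 1080, 1570 and 1580 in late cells, against 200 and 334 before (5.37-fold higher, adjusted p = 0.00560). The ubiquitin shuttle gene Ubqln2 read 236, 202 and 208 in late cells, against 1440 and 978 before (5.52-fold lower, adjusted p = 0.00121). Its relative Ubqln1 read 4020, 2870 and 2430 in late cells, against 1280, 1070 and 1370 early, and was 2.46-fold higher (adjusted p = 0.0232). Late against before, limma called 0 of 6 cullin ligase genes, with 0 at an unadjusted p under 0.05, and 0 of 5 COP9 signalosome genes, with 1. Their median log2 differences were 0.02 and 0.07.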

How the data were processed

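The authors deposited 1 linear intensity for each probe set, obtained as the array maker's technical manual describes, per the labels. The software and its version are not given in the sources used here. The 2% trimmed mean lay between 500.06 and 500.10 on every array, so this scaling was kept. Control probe sets (110) were left out, and genes were named through the platform annotation, from probe sets with 1 symbol. For that reason 1 probe set with a pair of Psm symbols, Psme2b and Psme2, was left out of the members.

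Values below a floor (137 on array A, 156 on array B, the 10th percentile with its sign turned) were set to it before log2. Testing took the 7582 probe sets above 182 (A) or 156 (B) in at least 2 of 10 samples. limma 3.58.1 in R 4.3.3 fitted 4 stage means per array type on 6 residual degrees of freedom, and, for the trend, a natural cubic spline on 3 degrees of freedom. Benjamini-Hochberg adjustment ran over both array types together, with a call at an adjusted p under 0.05. Every adjusted p is limma's. On simulated data with the same 7582 probe sets, the late against before test called 39 of 100 changed by 1 on the log2 scale and 100 of 100 changed by 2, with 8 false calls. The simulated noise was independent with the same spread in every probe set, and only brighter probe sets were changed. These rates therefore do not carry over to dim members or to the real spread between time points. A fold is a ratio of geometric stage means, "at least" where the lower stage has a sample at the floor. With intensities, the number of arrays limits the precision.

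Members, lists and tests were chosen with earlier results of these data known. Genes named are those called, those with the highest mean or the widest range in each role, every 20S and 19S subunit by its range, called genes of the pathway list, and others given as ranges; Psma5, Psme1, Ube2e1, Ube2e3, Ube2h, Usp5, Usp14, Usp21 and Ubqln1 were added after their values were seen. Marker lists covered adipocytes, fibroblasts and preadipocytes, dividing cells, macrophages, skeletal muscle, endothelium and the interferon response. Alternatives changed the floor, the scaling, the filter, the probe set per gene, the stages and the spline, or left out a time point. Of the protein sequences planned, none is shown.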

Additional observations from a re-analysis of the deposited data

How the results depend on the processing

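No paired analysis was possible because the labels give no replicate numbers and each time point is 1 sample per array type. None of the 15 calls on members was kept under every alternative. The adjusted p of a call lost under another setting than a left-out time point reached 0.494, for the trend of Usp39. Late against before, the 2 members higher became 1 with the lower floor (Psme3) and 0 with no filter. They became 3 under quantile normalization, which added Ube2b, and with the floor at 2 times Ube2b took the place of Psme3. With a time point left out they were between 0 and 2. The 0 lower became 1 with the floor at 2 times (Ubap2) and 1 with day 2 early and day 3 late (Ube2e3), and between 0 and 1 with a time point left out. Late against early, the 2 higher became 0 with the lower floor, 0 with no filter and 1 above the limit in 5 samples (Ube2b). With the stages regrouped neither was kept and the 1 higher was Psme1. Median centring kept Ube2b, lost Psmd8 and added Psme1, and the floor at 2 times kept both and added Psma6. With a time point left out they were between 0 and 2. The 3 lower became 1 with no filter (Ubap2). With the stages regrouped none of the 3 was kept and the 1 lower was Usp39. Ube2s was lost with either floor and under median centring, and the filter above the limit in 5 samples kept the 3 and added Usp39. With a time point left out they were between 0 and 4, of which at most 2 were among the 3. The 7 trend calls became 3 with no filter, all among the 7, and between 1 and 8 with a time point left out. A spline on 2 degrees of freedom kept 3 of the 7 and added Psmd9 and Ubap2, and the floor at 2 times kept 4 and added Ubap2. The lower floor kept 5 and added Ube2d3 and Usp14. Middle against before, the 1 higher became 0 with the floor at 2 times and 0 with no filter, and between 0 and 1 with a time point left out. Late against middle, the 0 lower became 2 without day 4. The causes were not tested. The setting with no filter tested 13069 probe sets in place of 7582. There the calls over all probe sets were 244 higher and 168 lower late against before, 313 and 202 late against early, and 631 by trend, against 441 and 387, 543 and 496, and 1273. With a time point left out, the median log2 difference of the 59 members lay between -0.05 and 0.19 late against before, between -0.06 and 0.09 late against early, between -0.18 and 0.18 early against before, between 0.10 and 0.55 middle against before and between -0.33 and -0.15 late against middle. The sign of the first 3 changed with the sample left out. In late against before, 5 members gained a call under at least 1 alternative. With 1 sample per time point, differences under about the spread between neighbouring time points were not detectable.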
